A study of Mus musculus with 12 samples.

Results

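The activin, follistatin, TGF-beta and BMP ligands were followed across 4 lines of mouse embryonic fibroblasts. The members are 8 genes, Fst, Inhba, Inhbb, Tgfb1, Tgfb2, Tgfb3, Bmp2 and Bmp4, and every probe set that the platform annotation assigns to them was taken. They were read by 12 of the 12488 probe sets on the array. Of these, 6 passed the filter on low signals and were tested, and they covered 5 of the 8 genes. Both probe sets of Bmp4 passed, as did 1 each for Fst, Inhba, Tgfb1 and Tgfb3. The single probe sets of Inhbb and Tgfb2, a further Tgfb3 probe set and the 3 Bmp2 probe sets did not pass. The filter asked for a signal over 181.4, the median of all signals, on at least 3 of the 12 arrays. Just inside it, Tgfb1 exceeded that level on 3 arrays and Inhba on 4. Just outside it, Tgfb2 exceeded it on 2 arrays, and the other 5 untested probe sets exceeded it on 0.

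All cells were KSR1 -/- fibroblasts of the DBA background strain, so every line lacked endogenous KSR1, the scaffold protein that holds the Raf, MEK and ERK kinases together. All lines also carried GFP. The double line carried re-expressed KSR1 together with the oncogenic Ras mutant H-RasV12, the KSR1 line carried KSR1, the H-RasV12 line carried H-RasV12, and the GFP line carried GFP alone. Each line was measured on 3 arrays. There was 1 line for each condition, how the transgenes were delivered is not given in the sources used here, and the labels do not say whether the arrays of a line were separate cultures. A p-value here thus reflects array-to-array spread within 1 line, which may be technical. Levels are MAS5 signals on a linear scale, given for arrays 1, 2 and 3 in turn and as mean ± SD (n = 3). Changes are log2 fold changes of signal plus 23, given ± SE with the Benjamini-Hochberg adjusted p from limma over the 6897 tested probe sets, and a change was called at an adjusted p under 0.05.

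These ligands are secreted dimers of one superfamily. Activins are made of the beta subunits encoded by Inhba and Inhbb and, like the TGF-beta isoforms, signal through the receptor-regulated Smads Smad2 and Smad3, whereas BMP ligands signal through Smad1, Smad5 and Smad9. Follistatin, the product of Fst, binds activins and keeps them from their receptors. In fibroblasts the TGF-beta isoforms are best known for driving collagen and contractile genes, and BMP ligands for inducing the Id family of transcriptional inhibitors.

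Within a line, r between arrays over all probe sets was 0.911 to 0.965, against 0.808 to 0.956 between lines. Of the 2 Ksr1 probe sets, 92765_s_at had its highest values in the lines with KSR1. It read 301, 262 and 141 in the double line, 933, 1605 and 207 in the KSR1 line, 20.2, 32.2 and 14.2 in the H-RasV12 line, and 144, 21.1 and 37.5 in the GFP line. The KSR1-null array GFP replicate 1 (144) lay above double-line replicate 3 (141), so the lines with and without KSR1 overlapped and these arrays did not separate by their labels. The other Ksr1 probe set, 92764_at, lay between 180 and 366 on all 12 arrays. The control for 18S ribosomal RNA stood low on the replicate 1 arrays of the double line (146), the KSR1 line (395) and the GFP line (345), and on GFP replicate 3 (516), against 1114 to 3312 on the other 8 arrays. Beta-actin, by its 3′ control probe set, read 8629 on double-line replicate 1 and 7981 on GFP replicate 1, against 16680 to 26873 on the other 10 arrays. Of 10 fibroblast markers 8 passed the filter. The summed signal of all 10 was 20073 to 30999 in the double line and 31785 to 36321 in the KSR1 line. It was 47228 to 64933 in the H-RasV12 line and 46616 to 62785 in the GFP line. S100a4, the brightest of the 10, read 7415 to 17386 over the 12 arrays and so made up a large part of the sum. The fibroblast markers Vim and Thy1 did not pass and reached at most 128. Of the epithelial markers 2 of 5 passed, Cdh1 and Krt19, and the list's summed signal was 1662 to 2070 in the double line, 866 to 1536 in the KSR1 line, 546 to 799 in the H-RasV12 line and 622 to 952 in the GFP line. The leukocyte and macrophage list had 1 of 8 passing, Cd14 at 1004 to 3024, with summed signals of 1620 to 1820, 1963 to 3863, 1445 to 1660 and 1191 to 2102 in the same order of lines. The endothelial list had 1 of 5 passing and the skeletal muscle list 2 of 4, and their summed signals were at most 436 and 679. The part of these differences in the results for the ligands was not tested, and in bulk RNA fewer cells of a type and less RNA per cell cannot be told apart.

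Fst and Bmp4 were the members that changed. Fst was lower in the double line than in each of the other 3 lines and higher in the KSR1 line than in the GFP line. Bmp4 was lower in the double line than in the KSR1 and GFP lines by both of its probe sets. Inhba, Tgfb1 and Tgfb3 passed the test in no comparison. With replicate number as a block, Tgfb3 was lower in the double and KSR1 lines than in the GFP line. Inhbb, which lay below the filter, was lower in the double line than in the KSR1 line in a fit made without the filter.

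The promoters of Bmp4 and Inhbb are shown because the signals of these ligand genes were lower in the double line than in the KSR1 line and the RefSeq promoter table holds both. Each window runs over 300 bases, with 250 bases before the start of the gene and 50 after it, on build GRCm38.p6. Capitals mark the motifs found. In Bmp4 (chr14:46390620-46390919, minus strand) these are, in order, the E-box CACGTG at bases 63 to 68, the ETS site CCGGAAG read on the opposite strand as CTTCCGG at bases 155 to 161, and the GC box GGGCGG at bases 213 to 218, counted from the 5′ end of the window. In Inhbb (chr1:119422199-119422498, minus strand) it is the GC box read on the opposite strand as CCGCCC, at bases 129 to 134.
Bmp4 promoter: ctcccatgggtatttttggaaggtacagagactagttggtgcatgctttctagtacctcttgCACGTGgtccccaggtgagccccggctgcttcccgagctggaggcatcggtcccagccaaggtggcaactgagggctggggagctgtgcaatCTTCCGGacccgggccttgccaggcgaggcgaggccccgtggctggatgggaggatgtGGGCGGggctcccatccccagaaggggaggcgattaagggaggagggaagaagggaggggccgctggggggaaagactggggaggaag
Inhbb promoter: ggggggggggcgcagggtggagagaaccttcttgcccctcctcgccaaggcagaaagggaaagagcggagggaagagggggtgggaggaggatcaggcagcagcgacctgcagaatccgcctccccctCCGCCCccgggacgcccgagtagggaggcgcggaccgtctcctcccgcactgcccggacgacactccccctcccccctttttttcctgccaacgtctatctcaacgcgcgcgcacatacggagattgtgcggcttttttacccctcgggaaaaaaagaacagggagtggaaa
The GC content of the Inhbb window was 64.3% and that of Bmp4 slightly less, against a median of 52.7% over 32851 promoters of the same length. Both strands were searched for 7 motifs and no hits overlapped. A GC box stood in 35.7% of all promoters, the ETS site in 8.86% and the E-box in 7.15%. The other motifs searched were the AP-1 site TGANTCA (in 7.81% of all promoters), the Smad box CAGAC (49.6%), its palindrome GTCTAGAC (0.213%) and the TATA box TATAAA (13.6%), and neither window held any of these letters. These matches describe letters in the window and were not tested as sites. Windows were found for 5 of the 8 members, and those of Inhba, Tgfb1 and Tgfb2 are not printed.

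Fst, which encodes the activin-binding protein follistatin, was read by probe set 98817_at. Its signal was 127, 7.29 and 33.4 in the double line, 1924, 1851 and 1693 in the KSR1 line, 270, 380 and 252 in the H-RasV12 line, and 487, 690 and 646 in the GFP line. No 2 lines overlapped, and the order of levels was KSR1, GFP, H-RasV12 and then the double line. The means were 56.0 ± 63.1 in the double line, 1823 ± 118 in the KSR1 line, 301 ± 69.7 in the H-RasV12 line and 608 ± 107 in the GFP line. Within the double line, replicate 1 was the highest array and stood well above the other two. This is also the array with the lowest 18S control and a low beta-actin control, and the part of that in its Fst signal was not tested.

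Among the lines with KSR1, the mean Fst signal was lower with H-RasV12 by a ratio of 32.6. The log2 change in the double line against the KSR1 line was -4.86 ± 0.41 (adjusted p = 3.42e-06). KSR1 in cells with H-RasV12 also went with a lower signal, with a log2 change of -2.33 ± 0.41 in the double line against the H-RasV12 line (adjusted p = 0.00118). Against the GFP line the double line changed by -3.30 ± 0.41 (adjusted p = 6.31e-05). Without double-line replicate 1 these changes were -5.48, -2.95 and -3.92, and all 3 were called under each of the 21 alternatives. With a pseudocount of 64 they were -4.10, -1.71 and -2.60.

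Between the KSR1 and GFP lines Fst differed the other way. The KSR1 line exceeded the GFP line by a ratio of means of 3.00, with a log2 change of +1.56 ± 0.41 (adjusted p = 0.0218). This call was lost with a pseudocount of 8 (adjusted p = 0.0684) and on leaving out any 1 KSR1 array or GFP replicate 1 or 3 (adjusted p between 0.0508 and 0.0728). H-RasV12 alone did not pass the test, with a log2 change of -0.97 ± 0.41 against GFP (adjusted p = 0.789), although each of its 3 arrays lay below each GFP array. The H-RasV12 response with KSR1 differed from the response without it by -3.89 ± 0.58 (adjusted p = 0.00107), and this interaction was called under all 20 alternatives in which it was run. It was -4.51 without double-line replicate 1.

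Inhba encodes the beta A subunit, a pair of which forms activin A, the main ligand held by follistatin. Its signal on 100277_at was low, at 82.4, 138 and 121 in the double line, 250, 222 and 178 in the KSR1 line, 128, 139 and 183 in the H-RasV12 line, and 169, 278 and 168 in the GFP line. The double-line arrays were all below the KSR1 and GFP arrays and overlapped those of the H-RasV12 line. The means were 114 ± 28.3, 217 ± 36.3, 150 ± 29.1 and 205 ± 63.0 in the same order of lines. Neither difference reached the threshold, with log2 changes of -0.82 ± 0.28 against the KSR1 line (adjusted p = 0.0653) and -0.73 ± 0.28 against the GFP line (adjusted p = 0.103). The first was called under 1 of 21 alternatives, the fit without an intensity trend (adjusted p = 0.0351). In the KSR1 line against GFP the log2 change was +0.10 ± 0.28 (adjusted p = 0.886), so the lines in which Fst differed by a ratio of 3.00 showed no detectable difference in Inhba.

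Inhbb encodes the beta B subunit of activin B. Probe set 160828_at stayed below the filter on all arrays. It read 1.89, 5.83 and 4.15 in the double line, 114, 74.8 and 83.5 in the KSR1 line, 29.9, 5.54 and 4.66 in the H-RasV12 line, and 29.1, 58.4 and 13.1 in the GFP line. The KSR1 arrays were the 3 highest and overlapped no other line, while the double line overlapped the H-RasV12 line only. The order of mean levels, KSR1, GFP, H-RasV12 and double, was the same as for Fst, whose lines did not overlap. For Inhbb the H-RasV12 mean stood above the double line through replicate 1 (29.9). Replicates 2 and 3 of the H-RasV12 line lay within the double-line range, and the H-RasV12 and GFP lines overlapped. In the fit without a filter, the double line fell by 2.07 ± 0.31 on the log2 scale against the KSR1 line (adjusted p = 0.00103). That comparison called 1 of the 6 member probe sets below the filter, lower, against 3.50% of all 12422 probe sets in the fit called lower. The KSR1 line against GFP gave a log2 change of +1.07 ± 0.31 (adjusted p = 0.0647) and the double line against GFP -0.99 ± 0.31 (adjusted p = 0.0755), neither past the threshold. At signals this dim the added 23 shrinks the log2 change.

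**Figure D1:**
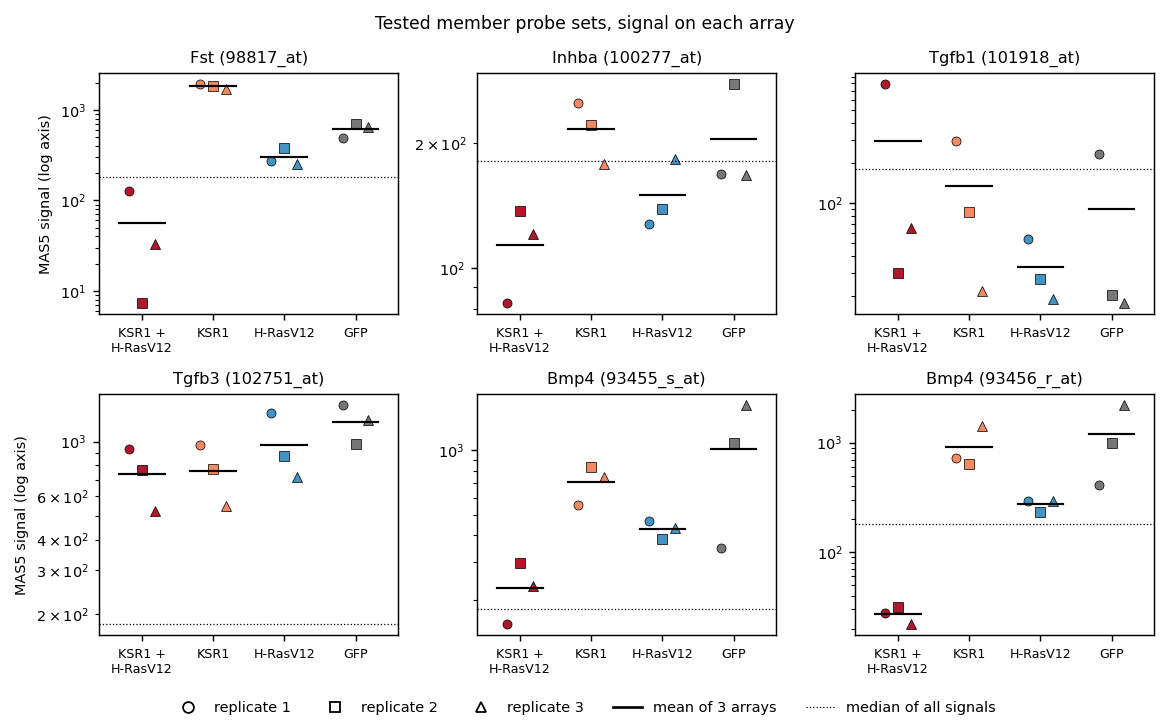
MAS5 signal of the 6 tested member probe sets on each array, on log axes, with the double line at the left and GFP at the right of every panel. Circles, squares and triangles are replicates 1, 2 and 3, bars are means of 3 arrays, and the dotted line is the median of all signals, 181.4. The Fst lines do not overlap, and the double line is the lowest for both Bmp4 probe sets. The Tgfb1 signal is above the dotted line only on the replicate 1 arrays of the double, KSR1 and GFP lines.

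Bmp4, a ligand of the BMP branch, was read by 2 probe sets. On 93456_r_at the signal was 27.7, 31.8 and 21.9 in the double line, 720, 639 and 1406 in the KSR1 line, 296, 235 and 293 in the H-RasV12 line, and 411, 988 and 2193 in the GFP line. The double line was near the bottom of the scale on each array, and the KSR1 and GFP lines overlapped and spread widely. The means were 27.2 ± 4.98, 922 ± 421, 274 ± 34.4 and 1197 ± 909 in the same order of lines. The other probe set, 93455_s_at, read 154, 299 and 234 in the double line, 553, 833 and 750 in the KSR1 line, 469, 383 and 435 in the H-RasV12 line, and 349, 1076 and 1613 in the GFP line. Again the double line overlapped no other line and GFP replicate 1 was the lowest GFP array on both probe sets. Its beta-actin control was also low, at 7981, and the part of that in its Bmp4 signal was not tested.

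The probe sets had the same direction and different sizes. Against the KSR1 line, the double line changed by -4.15 ± 0.44 on the log2 scale on 93456_r_at (adjusted p = 2.62e-05) and by -1.57 ± 0.41 on 93455_s_at (adjusted p = 0.0172). The smaller change lost its call without KSR1 replicate 2 (adjusted p = 0.0748) or double-line replicate 1 (adjusted p = 0.0539). Against the GFP line the changes were -4.31 ± 0.44 (adjusted p = 1.24e-05) and -1.84 ± 0.41 (adjusted p = 0.00588), called under all 21 alternatives for both probe sets. Without GFP replicate 1 they were -4.90 and -2.45, and without GFP replicate 3 they were -3.73 and -1.39. Against the H-RasV12 line the change was -2.57 ± 0.44 on 93456_r_at (adjusted p = 0.00101) and -0.88 ± 0.41 on 93455_s_at (adjusted p = 0.179), where only the first was called. The second was called under 2 of 21 alternatives, without GFP replicate 1 and with the groups of the comparison alone. With a pseudocount of 64, the 93456_r_at changes against the KSR1, H-RasV12 and GFP lines were -3.36, -1.89 and -3.51.

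KSR1 without H-RasV12 gave no detectable change in Bmp4, with log2 changes of -0.16 ± 0.44 (adjusted p = 0.881) and -0.27 ± 0.41 (adjusted p = 0.740). H-RasV12 without KSR1 gave -1.74 ± 0.44 (adjusted p = 0.236) and -0.96 ± 0.41 (adjusted p = 0.789). These 2 differences depended on single GFP arrays. Without GFP replicate 1 they were -2.34 ± 0.35 (adjusted p = 0.0080) and -1.57 ± 0.28 (adjusted p = 0.0232) and both were called. Without GFP replicate 3 they were -1.16 ± 0.37 and -0.50 ± 0.38, and neither was called. The interaction on 93456_r_at was -2.41 ± 0.62 (adjusted p = 0.0288) and was called under 9 of 20 alternatives. It was -1.73 with a pseudocount of 64 (adjusted p = 0.0949) and -1.81 without GFP replicate 1 (adjusted p = 0.0316). Leaving out any 1 H-RasV12 array, GFP replicate 2, KSR1 replicate 3 or double-line replicate 2 or 3 ended the call (adjusted p between 0.0523 and 0.0714). On 93455_s_at the interaction was -0.61 ± 0.57 (adjusted p = 0.620). Bmp2, a close relative of Bmp4, had 3 probe sets, all below the filter. They read 6.97 to 71.7, 0.148 to 10.9 and 19.2 to 73.0 over the 12 arrays.

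**Figure D2:**
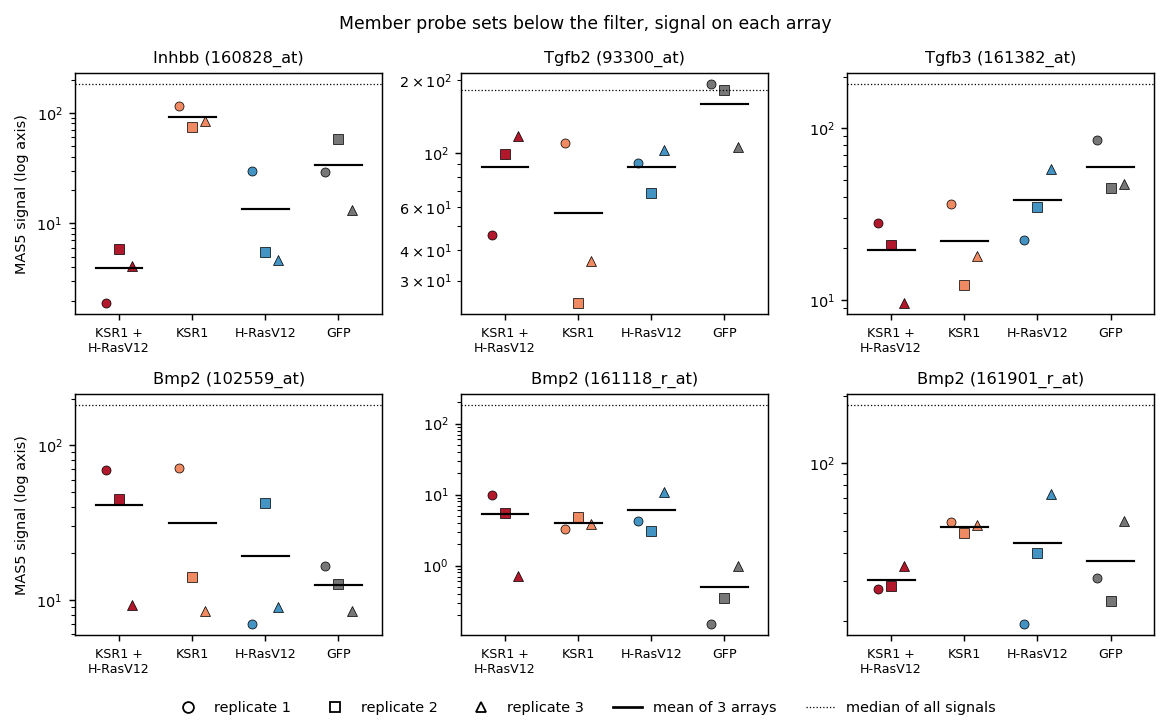
MAS5 signal of the 6 member probe sets below the filter on each array, on log axes, with lines, markers, bars and the dotted line at 181.4 as for the tested probe sets. The 3 KSR1 arrays are the highest for Inhbb, and 2 GFP arrays of Tgfb2 are the points above the dotted line.

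Tgfb3, which encodes one of the TGF-beta isoforms, exceeded the filter level on all 12 arrays. On 102751_at it read 932, 770 and 523 in the double line, 964, 774 and 550 in the KSR1 line, 1306, 873 and 719 in the H-RasV12 line, and 1403, 980 and 1227 in the GFP line. The means were 742 ± 206, 763 ± 207, 966 ± 304 and 1203 ± 212 in the same order, and the GFP arrays lay above all those of the double and KSR1 lines. The log2 changes against GFP were -0.70 ± 0.27 for the double line (adjusted p = 0.103) and -0.66 ± 0.27 for the KSR1 line (adjusted p = 0.142), neither of them called. With replicate number as a block both were called, at -0.70 ± 0.19 (adjusted p = 0.0173) and -0.66 ± 0.19 (adjusted p = 0.0296). In both comparisons the GFP array was the higher one of all 3 pairs of the same replicate number. Since these lines did not overlap, any pairing would give this, and it says nothing about the block. Deviations from the line means correlated for all 3 same-number pairs of the KSR1 and GFP lines (0.209 to 0.511) and less so for the double and GFP lines (0.099 to 0.282). The double line against the KSR1 line gave -0.04 ± 0.27 (adjusted p = 0.940), a sign that turned to +0.12 when arrays were centred on their medians. In these same arrays Fst differed by -4.86. The dim Tgfb3 probe set 161382_at averaged 19.5 ± 9.29 in the double line, 22.1 ± 12.6 in the KSR1 line, 38.3 ± 17.9 in the H-RasV12 line and 59.3 ± 22.7 in the GFP line. Its highest line was also GFP.

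Tgfb1, the most studied isoform, could not be measured evenly. Probe set 101918_at read 788, 29.7 and 64.6 in the double line, 294, 85.2 and 21.6 in the KSR1 line, 53.7, 26.9 and 19.0 in the H-RasV12 line, and 234, 20.3 and 17.6 in the GFP line. Replicate 1 was the highest array in every line, and the 3 arrays over the filter were the replicate 1 arrays of the double, KSR1 and GFP lines. On these same 3 arrays the 18S control read 146, 395 and 345, while on H-RasV12 replicate 1 it read 1114. The beta-actin control was low on the double-line and GFP arrays among them, at 8629 and 7981, against 16680 on the KSR1 array. GFP replicate 3 also had a low 18S control, at 516, and its Tgfb1 signal of 17.6 was the lowest of the 12 arrays. The part of these controls in the Tgfb1 signal was not tested. The lines overlapped in all 5 pairs compared, and the SE of each log2 change was 0.97. The change nearest to the threshold was +1.51 in the double line against the H-RasV12 line (adjusted p = 0.369). Without the replicate 1 arrays the Tgfb1 probe set would have passed the filter on 0 arrays.

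Tgfb2 lay just below the filter on 93300_at. It read 46.3, 99.2 and 117 in the double line, 110, 24.2 and 36.2 in the KSR1 line, 91.3, 68.7 and 103 in the H-RasV12 line, and 192, 182 and 106 in the GFP line. The GFP line had the highest mean, 160 ± 47.1, against 87.6 ± 36.9 in the double line, 56.9 ± 46.6 in the KSR1 line and 87.5 ± 17.3 in the H-RasV12 line. In the fit without a filter, the KSR1 line against GFP gave a log2 change of -1.31 ± 0.41 (adjusted p = 0.0879), which missed the threshold.

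Counted over the 6 tested member probe sets, the double line against the KSR1 line called 3, all lower (Fst and both Bmp4 probe sets), against 15.1% of all tested probe sets called in either direction and 6.92% called lower. In 4 of the 6 the double-line arrays were all below the KSR1 arrays, against 14.1% of all tested probe sets. The median log2 change of the 6 was -1.19, against -0.07 over all tested probe sets. With arrays centred on their medians the all-probe-set calls in that comparison moved to 701 higher and 308 lower, against 563 and 477 as deposited, and the same 3 member probe sets were called. The double line against the GFP line also called 3, all lower, against 15.6% in either direction and 7.93% lower. In 5 of the 6 its arrays were all below the GFP arrays, against 14.4%, and the median was -1.28 against -0.02. The double line against the H-RasV12 line called 2, both lower, against 14.8% in either direction and 7.71% lower. In 3 of the 6 its arrays were all below those of the H-RasV12 line, against 15.5%, and the median was -0.62 against -0.05. KSR1 against GFP called 1, Fst, which was higher, against 11.8% in either direction and 4.97% higher, with a median of -0.03 against 0.04. With replicate number as a block it called 2, Fst and Tgfb3. These comparisons share arrays of the same lines and are not independent of each other.

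H-RasV12 against GFP called 0 of the 6, against 0.0725% of all tested probe sets, which is 5 of 6897. At an unadjusted p under 0.05 it held 3 of the 6, against 411 of all 6897, and the member median was -0.73. Without GFP replicate 1, 2 member probe sets were called, both of Bmp4, against 23 of all 6897. The interaction called 2, Fst and Bmp4 on 93456_r_at, both negative, against 7.70% in either direction and 3.54% negative. Its all-probe-set calls were 287 positive and 244 negative as deposited and 355 and 161 with median centring. The Ksr1 signal of GFP replicate 1 and double-line replicate 3 had not separated by label. Without GFP replicate 1, 3 member probe sets were called in the double line against GFP, 3 against the KSR1 line and 3 against the H-RasV12 line, 0 in KSR1 against GFP, 2 in H-RasV12 against GFP and 2 in the interaction. Without double-line replicate 3 the counts were 3, 3, 2, 1, 0 and 1 in the same order. Over all 6897 tested probe sets the counts were 912, 1063, 1040, 745, 23 and 526 without GFP replicate 1. They were 845, 851, 806, 868, 5 and 456 without double-line replicate 3.

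**Figure D3:**
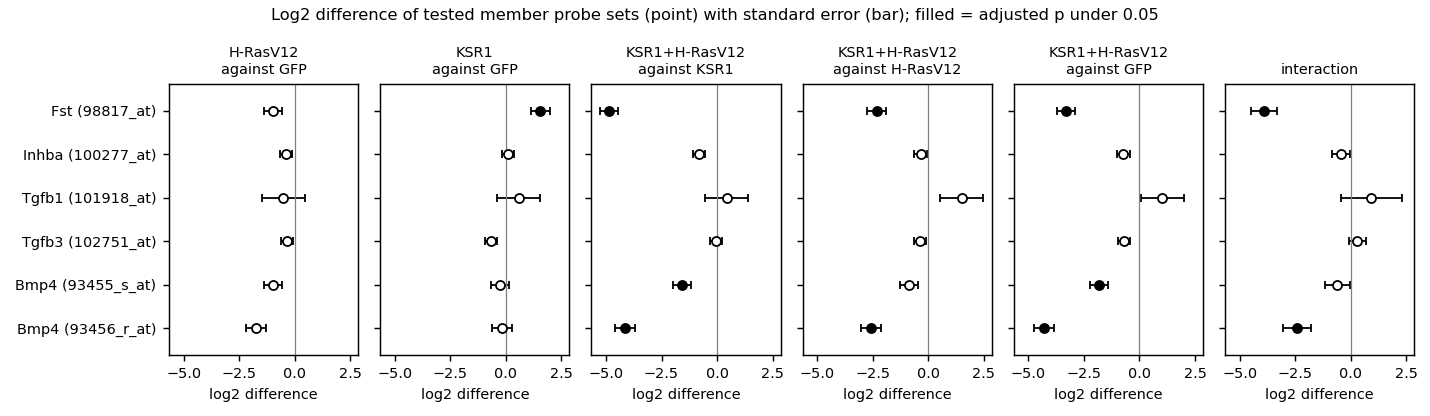
Log2 fold changes (signal plus 23) of the 6 tested member probe sets in the 5 comparisons and the interaction, with bars of 1 SE on each side and filled points for an adjusted p under 0.05. Fst is at -4.86 and Bmp4 (93456_r_at) at -4.15 in the double line against the KSR1 line, and Tgfb3 is at -0.04.

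The probe sets most like Fst over the 12 arrays were sought among 6248 tested probe sets of other genes with 1 symbol, by Pearson's r of log2 signal. Timp1, which encodes an inhibitor of matrix metalloproteinases, came first with r = 0.947, then Crip2 with 0.939 and Ly75 with 0.933. Timp1 averaged 3566 ± 1257 in the double line, 10943 ± 1143 in the KSR1 line, 4805 ± 736 in the H-RasV12 line and 6547 ± 452 in the GFP line, the same order of lines as Fst. Crip2 averaged 285 ± 90.1 in the H-RasV12 line and 254 ± 61.8 in the GFP line, so these lines stood in the other order for it. Ly75 averaged 43.2 ± 4.73, 357 ± 26.1, 130 ± 4.62 and 169 ± 52.9 in the same order of lines. For Bmp4 on 93456_r_at the nearest of 6247 probe sets were Kazald1 (r = 0.950), Sash1 (0.950) and Sgce (0.940). Kazald1 averaged 54.8 ± 18.7 in the double line, 387 ± 113 in the KSR1 line, 194 ± 8.14 in the H-RasV12 line and 421 ± 8.29 in the GFP line, so it too was highest with GFP or KSR1. These r values describe 12 arrays that fall into 4 lines, and they were picked as the highest of all candidates.

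Other genes of the pathway were described by lists of their roles. Among 26 other ligands, 2 were tested, Inhbc and Gdf9, and 0 were called in any comparison. Among 16 receptors and co-receptors, 7 were tested and 0 were called in any of the 6 comparisons, with medians between -0.16 and 0.06. With replicate number as a block, or without KSR1 replicate 3, the receptor list had 1 call lower in the KSR1 line than in the GFP line and 1 call higher in the double line than in the KSR1 line. In H-RasV12 against GFP all 7 lists had 0 calls. Without GFP replicate 1 that comparison called 3 TGF-beta and activin target genes and 1 of the Smads and their regulators, all lower.

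Of the 5 tested extracellular antagonists other than Fst, 2 fell in the double line against the KSR1 line and 0 rose, against 6.92% of all tested probe sets called lower. The median was -1.29, against -0.07 over all tested probe sets. With replicate number as a block 3 fell, the third being Grem1 (adjusted p = 0.0402). Fstl1, which encodes a follistatin-like secreted protein, read 654, 560 and 551 in the double line, 2710, 2296 and 1598 in the KSR1 line, 2108, 1613 and 1636 in the H-RasV12 line, and 6473, 2835 and 3684 in the GFP line. The double line lay below every other array, and its log2 changes were -1.84 ± 0.27 against the KSR1 line (adjusted p = 0.000318) and -2.75 ± 0.27 against the GFP line (adjusted p = 9.71e-06). Nbl1, a BMP antagonist of the DAN family, changed by -2.31 ± 0.44 in the double line against the KSR1 line (adjusted p = 0.00203). Grem1, another BMP antagonist, read 375, 333 and 345 in the KSR1 line, against 82.6, 72.3 and 37.8 in the GFP line, and rose by 2.14 ± 0.42 (adjusted p = 0.00373). In KSR1 against GFP it was the one antagonist besides Fst that rose, while Fstl1 fell by 0.91 ± 0.27 (adjusted p = 0.0407), a call lost under 12 of 21 alternatives.

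Of 11 tested genes for latency, activation and processing of the ligands, 6 fell and 0 rose in the double line against the KSR1 line, against 6.92% of all tested probe sets called lower. The median was -1.15, against -0.07 over all tested probe sets. Latent TGF-beta is tethered to the matrix by some, and not all, of the LTBP proteins. The called genes of the list were Ltbp1, Ltbp2, Ltbp4, the integrin subunit gene Itgb5, and the TGF-beta-binding proteoglycan genes Dcn and Bgn. The call of Ltbp1 held under 14 of 21 alternatives, and that of Dcn was lost without KSR1 replicate 1 or double-line replicate 3. Ltbp2 read 195, 90.0 and 52.1 in the double line, 941, 722 and 686 in the KSR1 line, 1060, 759 and 555 in the H-RasV12 line, and 2100, 1388 and 1505 in the GFP line. It changed by -2.70 ± 0.33 against the KSR1 line (adjusted p = 8.42e-05) and by -3.76 ± 0.33 against the GFP line (adjusted p = 3.5e-06). Bgn averaged 1951 ± 1873 in the double line, against 8716 ± 564 in the KSR1 line, a change of -2.87 ± 0.65 (adjusted p = 0.00722). The same list had 6 genes lower and 0 higher in the double line against each of the H-RasV12 and GFP lines, where 7.71% and 7.93% of all tested probe sets were called lower. These matrix genes moved in the same direction as the summed fibroblast markers given above, and the part of that in them was not tested.

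Of 7 tested Smads and their regulators, Smad6 and Ski, which code for inhibitors of Smad signalling, fell in the KSR1 line against GFP and Tgif1, a Smad co-repressor gene, rose. In that comparison 6.81% of all tested probe sets were called lower and 4.97% higher. The call of Tgif1 was lost with median centring and with replicates 2 and 3 alone. Smad6 read 170, 225 and 249 in the double line, 416, 343 and 389 in the KSR1 line, 618, 353 and 436 in the H-RasV12 line, and 601, 1302 and 1264 in the GFP line. Its log2 change was -2.12 ± 0.28 in the double line against GFP (adjusted p = 0.000121) and -1.33 ± 0.28 in the KSR1 line against GFP (adjusted p = 0.00635). In the double line against the KSR1 line the 1 call was Tgif1, lower by a log2 change of -0.93 ± 0.17 (adjusted p = 0.00168). Against the H-RasV12 line 3 of the 7 fell, Smad6, Ski and Smad2, against 7.71% of all tested probe sets, and 0 were called there with median centring or without H-RasV12 replicate 1 or double-line replicate 2.

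**Figure D4:**
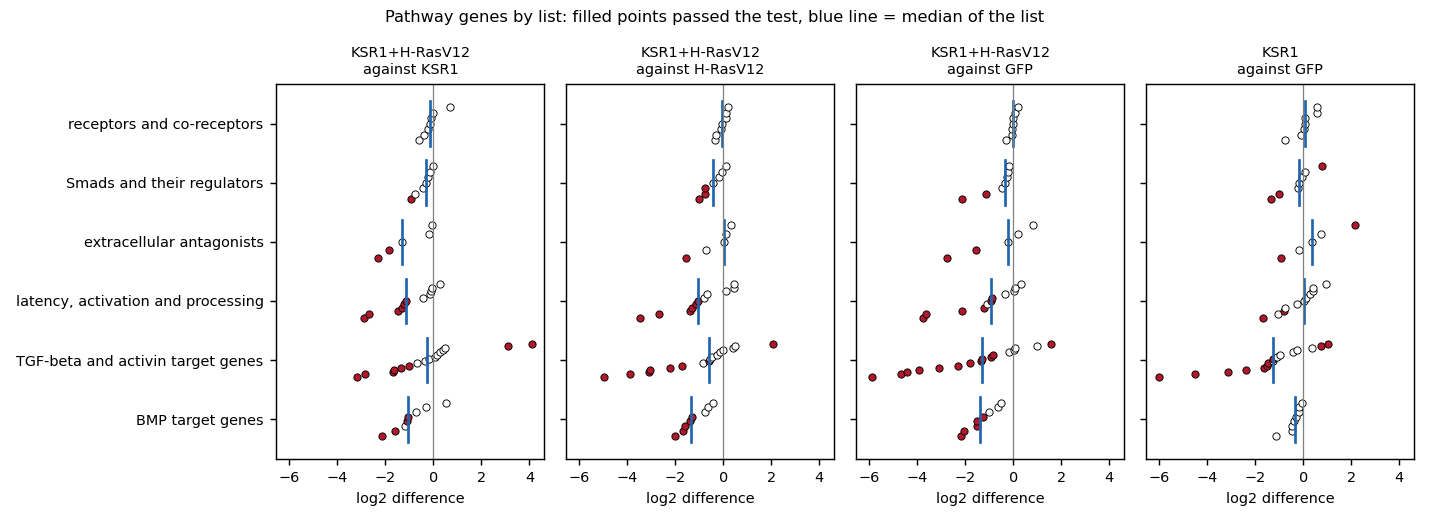
Log2 fold change (signal plus 23) of every tested gene in 6 lists of the pathway, 1 point a gene, in the double line against each other line and in the KSR1 line against GFP. Filled points were called at an adjusted p under 0.05 and blue lines are list medians. The filled BMP target points are all on the negative side, while TGF-beta and activin targets have filled points on both sides.

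Of 8 tested BMP target genes, 4 fell and 0 rose in the double line against the KSR1 line, 5 fell against the H-RasV12 line and 5 fell against the GFP line. Of all tested probe sets 6.92%, 7.71% and 7.93% were called lower in these comparisons. The list's medians were -1.07, -1.35 and -1.38, against -0.07, -0.05 and -0.02 over all tested probe sets. In the KSR1 line against GFP 0 were called, and 1 was called lower under 4 alternatives, which were quantile normalization, no intensity trend, and the fits without GFP replicate 1 and without H-RasV12 replicate 2. Id3, which codes for an inhibitor of basic helix-loop-helix factors, read 990, 697 and 963 in the double line, 1805, 2559 and 4031 in the KSR1 line, 3490, 2262 and 2540 in the H-RasV12 line, and 2315, 4815 and 4483 in the GFP line. The double line overlapped no other line, and Id3 changed by -1.58 ± 0.31 against the KSR1 line (adjusted p = 0.00299), -1.61 ± 0.31 against the H-RasV12 line (adjusted p = 0.00251) and -2.05 ± 0.31 against the GFP line (adjusted p = 0.000358). Id2, of the same family, read 392, 634 and 1404 in the double line, 1336, 3354 and 6870 in the KSR1 line, 3051, 2320 and 3457 in the H-RasV12 line, and 1847, 4618 and 4181 in the GFP line. Here the double and KSR1 lines overlapped, and the change against the KSR1 line was -2.12 ± 0.53 (adjusted p = 0.014), a call lost without KSR1 replicate 2 or 3 or double-line replicate 1 or 2. Some of these counts rested on single arrays. Against the KSR1 line 2 genes were called without KSR1 replicate 2 or 3, and 3 with replicate number as a block, where Id4 lost its call (adjusted p = 0.0516). Against the H-RasV12 line 2 were called without H-RasV12 replicate 1 or 3, and 3 without double-line replicate 1 or 2. Against the GFP line 3 were called without GFP replicate 2 or 3 or double-line replicate 3.

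**Figure D5:**
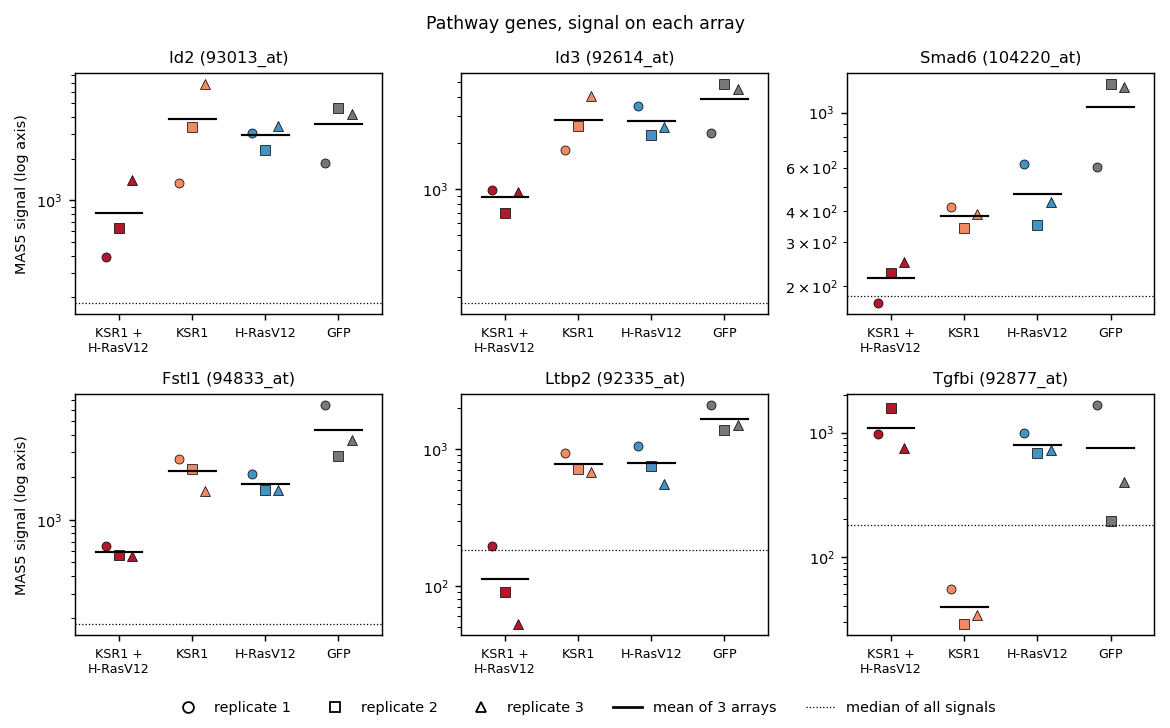
MAS5 signal of 6 pathway genes on each array, on log axes, with lines, markers, bars and the dotted line at 181.4 as for the member probe sets. The double line is the lowest for Id3, Smad6, Fstl1 and Ltbp2, and the KSR1 line is the lowest for Tgfbi.

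Of 16 tested TGF-beta and activin target genes, 11 fell and 1 rose in the double line against GFP, and 8 fell and 2 rose in the KSR1 line against GFP, with medians of -1.32 and -1.27. Of all tested probe sets, 7.93% were called lower in the first comparison and 6.81% in the second, and the medians were -0.02 and 0.04. The genes that rose with KSR1 were Junb and Timp1, and the call of Timp1 held under 9 of 21 alternatives. The list shares Col1a1 and Col1a2 with the fibroblast markers, whose summed signal was also lower in both of these lines than in the GFP line, and the part of this was not tested. In the double line against the KSR1 line 6 fell and 2 rose, against 6.92% called lower over all tested probe sets, with a median of -0.25 against -0.07. The 2 that rose were Tgfbi, which codes for a matrix protein induced by TGF-beta, and the transcription factor gene Bhlhe40. Tgfbi read 974, 1563 and 744 in the double line, 55.1, 28.7 and 34.0 in the KSR1 line, 993, 679 and 727 in the H-RasV12 line, and 1655, 194 and 398 in the GFP line. All 3 KSR1 arrays were below every other array, and the double line exceeded the KSR1 line by 4.12 ± 0.53 on the log2 scale (adjusted p = 0.000116). Among those that fell, Ccn2, a matricellular growth factor gene, changed by -3.16 ± 0.47 (adjusted p = 0.000349) and Timp1 by -1.66 ± 0.22 (adjusted p = 0.000139). The actin-binding protein gene Tagln averaged 102 ± 36.3 in the double line, 115 ± 20.2 in the KSR1 line, 1012 ± 290 in the H-RasV12 line and 3545 ± 1931 in the GFP line, and it was lower in both lines with KSR1 than in GFP. The called genes of the list therefore did not all move in 1 direction, though few rose. The order of lines was not that of Fst in every gene.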

How the data were processed

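Affymetrix mouse arrays were hybridised with cRNA made from total RNA, per the labels' protocols. The authors deposited MAS5 signals, per the submitters' processing notes, which are linear intensity values for each probe set. The version is not given in the sources used here. The deposited arrays share a 2% trimmed mean of 500.3, so no scaling was added. Gene names came from the platform annotation, updated to GRCm38.p6 by identifier (10817 of 10833 probe sets with 1 symbol). A further 396 had several symbols and 1193 were unnamed here.

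Signals plus 23, the 20th percentile of all values, were log2 transformed. Probe sets over 181.4 on at least 3 of 12 arrays were tested, which left 6897, with 66 controls and 5525 dim probe sets out. One limma fit (3.58.1, R 4.3.3) had 4 group means, 8 residual degrees of freedom, an intensity trend, two-sided tests and Benjamini-Hochberg adjustment, and was tested on simulated data. The interaction is the H-RasV12 response with KSR1 minus that without it. The number of arrays limits the precision.

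Of each list, called members with the largest changes were named, up to 4 for each comparison, besides all members, the Ksr1 probe sets and the 3 probe sets most like Fst and Bmp4. The members and lists were chosen with earlier results of these data known. The alternatives were other pseudocounts, normalizations, filters and fits, and leaving out arrays. Those on the lists were added after the data were seen. Genes of the lists with no probe set of 1 symbol were not analysed here. Deviations from the line means were correlated between arrays of the same number in the titles. All 3 pairs passed 0.1 for KSR1 against GFP and for the double line against the KSR1 line. In the other comparisons at least 1 pair did not. Arrays of different numbers also passed. With GFP arrays these were H-RasV12 replicate 2 with GFP replicate 1 (0.241) and H-RasV12 replicate 1 with GFP replicate 3 (0.123). KSR1 replicate 3 (0.217) and double-line replicate 3 (0.225) passed with GFP replicate 2. Double-line replicate 1 passed with H-RasV12 replicate 2 (0.186), and double-line replicate 2 with H-RasV12 replicate 1 (0.129). The labels do not say whether the numbers pair the arrays, and the main fit did not pair them. Promoters came from RefSeq.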

Additional observations from a re-analysis of the deposited data

Results flagged for a closer look

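The H-RasV12 response with KSR1 differed from that without it, by limma's test of the interaction (adjusted p under 0.05), for 2 of 6 tested member probe sets and 7 genes of the pathway lists. Of all tested probe sets 7.70% were called in this test. By list, the negative calls were 1 of 7 tested Smads and their regulators, 2 of 11 latency genes, 1 of 8 BMP targets and 1 of 16 TGF-beta and activin targets. Among those 16 targets 2 calls were positive, and the remaining lists had 0 calls. Fst (98817_at) had -3.89 and Bmp4 (93456_r_at) -2.41 on the log2 scale. Of the list genes, the interaction was negative for Dcn (-2.07), Itgb5 (-1.40), Gata2 (-1.22), Timp1 (-1.21) and Tgif1 (-1.20). It was positive for Bhlhe40 (3.59) and Tgfbi (3.52). The calls of Bmp4 and Gata2 held under 9 of 20 alternatives each and that of Timp1 under 11, while those of Fst, Dcn, Itgb5, Bhlhe40 and Tgfbi held under all 20 and that of Tgif1 under 19, lost with median centring. No group of 3 arrays was tested for single outlying values.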

How the results depend on the processing

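Over the 6 tested member probe sets and 6 comparisons, 21 alternatives gave 701 values with the same direction and side of the threshold, 19 that lost a call, 9 that gained one and 21 that changed sign, none of them called. Calls ranged over arrays left out in turn from 0 to 2 for H-RasV12 against GFP, 0 to 1 for KSR1 against GFP, 2 to 3 for the double line against the KSR1 line, 2 to 3 against the H-RasV12 line, 3 to 3 against GFP and 1 to 2 for the interaction. With replicates 2 and 3 alone, H-RasV12 against GFP called 2. KSR1 against GFP called 0 with a pseudocount of 8. The interaction called 1 with a pseudocount of 64, no filter, median centring, or replicates 2 and 3 alone. Over all tested probe sets, H-RasV12 against GFP called 5, against 8 without a filter, 10 with the block, 2 with its groups alone, 53 with replicates 2 and 3 alone, and 1 to 23 with an array left out. KSR1 against GFP called 813, against 482 when GFP replicate 3 was left out and 512 when KSR1 replicate 2 was. The interaction called 531, against 339 when H-RasV12 replicate 2 was left out and 340 when KSR1 replicate 2 was.

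Deviations of same-numbered arrays correlated from -0.021 to 0.511, with 13 of 18 pairs over 0.1, and 10 of 12 arrays were closest on average to their own number. By comparison they ran from 0.209 to 0.511 for KSR1 against GFP and 0.162 to 0.432 for the double line against the KSR1 line, where every pair was over 0.1. They ran from -0.021 to 0.187 for H-RasV12 against GFP, 0.026 to 0.381 for the double line against the H-RasV12 line and 0.099 to 0.282 against GFP, where at least 1 pair was under 0.1. Between arrays of different numbers, H-RasV12 replicate 2 with GFP replicate 1 reached 0.241. With replicate number as a block, KSR1 against GFP called 2 member probe sets, Fst and Tgfb3 (adjusted p = 0.0296), and Tgfb3 was also called in the double line against GFP (adjusted p = 0.0173). Over all tested probe sets the block called 1047 in KSR1 against GFP, against 813 in the main fit. In the double line against GFP it called 1317, against 1079. The block changed no other call of a member probe set. Among the lists it gave H-RasV12 against GFP 1 call, Fstl1, lower (adjusted p = 0.0451). In KSR1 against GFP it added Ltbp2 and Acvr2a, lower (adjusted p = 0.00405 and 0.0403), and Dcn, higher (adjusted p = 0.0133). Ltbp4 was added, lower, in the double line against the H-RasV12 line (adjusted p = 0.0451). The interaction gained Ltbp2 (adjusted p = 0.00392) and Id2 (adjusted p = 0.02), both negative.

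Median centring shifted the median of all tested probe sets by 0.17 in the double line against the KSR1 line and by 0.18 in the interaction. Tgfb3 in the double line against the KSR1 line then turned to 0.12. The other changes of sign came with arrays left out. With 1 array out, that Tgfb3 value ran from -0.25 to 0.18, and Inhba in KSR1 against GFP from -0.02 to 0.31 (-0.11 with replicates 2 and 3 alone). Tgfb1 ran from -0.96 to 0.37 in H-RasV12 against GFP (0.13 with replicates 2 and 3 alone), from -0.14 to 1.46 in KSR1 against GFP and from -0.18 to 1.89 in the double line against GFP. Against the KSR1 line the double line's Tgfb1 ran from -0.76 to 1.21 (-0.03 with replicates 2 and 3 alone), and the interaction from -0.26 to 1.71 (-0.16 likewise). Bmp4 in KSR1 against GFP ran from -0.89 to 0.18 on 93455_s_at and from -0.75 to 0.43 on 93456_r_at, and the interaction on 93455_s_at from -1.06 to 0.01 (0.13 with replicates 2 and 3 alone). The causes were not tested. Signals near the bottom of the scale limit Inhbb, Bmp2 and the double line's Fst and Bmp4 values.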
